A study of Homo sapiens with 9 samples.

Results

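The cyclins, the cyclin-dependent kinases (CDKs), their inhibitors and the E2F and RB family genes were examined in WM983B, a human melanoma cell line that is long established in culture. Members were taken by symbol alone: those starting with CCN and a capital letter, with CDK and a digit, or with CDKN, CDKL, CDC25 or E2F and a digit, together with RB1, RBL1, RBL2, TFDP1 and TFDP2. This gave 77 of the 14884 genes that carried a name on the array, of which 72 code for protein and 5 are noncoding RNAs or pseudogenes. Some prefixes catch genes that work outside the cell cycle, such as the cyclins and CDKs that act on RNA polymerase II. The inhibitors CDKN1A, CDKN1B, CDKN1C, CDKN2B, CDKN2C and CDKN2D and the cyclin CCNA1 were not analysed here. Nor were the factors E2F4, E2F5 and E2F6 or the kinases CDK3 and CDK11B among the members.

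In a dividing cell, D-type cyclins with CDK4 and CDK6 and E-type cyclins with CDK2 phosphorylate the RB family of pocket proteins, which releases E2F factors to transcribe the genes of DNA replication. Cyclin A with CDK2 and B-type cyclins with CDK1 then carry the cell through S phase and into mitosis, and CDC25 phosphatases remove the inhibitory phosphates from these kinases. CDK inhibitors hold the kinases back, and in melanoma the locus of the inhibitor CDKN2A and the kinase CDK4 are known sites of inherited predisposition.

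Cells were kept for 24 h in 2.5 µM corin, 2.5 µM MS-275 or a matching amount of DMSO (vehicle), so all groups were exposed to DMSO, and each group had 3 Affymetrix Human Gene 2.0 ST arrays. MS-275, also called entinostat, blocks class I histone deacetylases (HDACs) through a benzamide that binds their zinc, and corin joins a benzamide of this type to a warhead directed at the demethylase LSD1. The labels name the hybrid corin2, which was taken to be corin, and it was compared with MS-275 at the same dose. The paper reports that corin raised histone H3 acetylation and slowed growth of WM983B cells at lower concentrations than MS-275. Equal doses therefore need not be equal in effect. No array had an LSD1 inhibitor alone or together with MS-275, so greater potency and the added LSD1 warhead cannot be told apart. The series describes the arrays of a group as biological triplicates, and the paper's methods call the array data representative of 3 independent experiments. Neither states separate cultures of the line, so the spread behind each p-value is that of 3 arrays and can be partly or wholly technical.

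Signals are given as the log2 values that the authors deposited, where 1 unit is a 2-fold change. The median named gene read 5.24 to 5.25 on corin arrays, 5.29 to 5.31 on MS-275 arrays and 5.2 to 5.22 on vehicle arrays. Pearson's r across all named genes, which are not independent replicates, was 0.989 to 0.991 between corin arrays, 0.994 between MS-275 arrays and 0.994 between vehicle arrays. The cell line was checked against 9 measured melanocyte markers, all above the median named gene on all 9 arrays, while none of 5 keratinocyte markers was. The melanocyte level, taken as the mean log2 signal of the list, was 6.79 to 6.85 on corin arrays, 8.31 to 8.48 on MS-275 arrays and 8.67 to 8.74 on vehicle arrays, with 7 of the 9 markers called lower in corin than in vehicle and 0 in MS-275. Of 3 measured fibroblast markers, 2 lay above the median on all arrays but corin replicate 2, where 1 did. Of 3 immune markers, 1 lay above it. The fibroblast marker LUM averaged 9.08 and the immune marker CD68 11.47 on vehicle arrays. The mean of the fibroblast markers was 6.04 to 6.23 on corin arrays, 6.43 to 6.61 on MS-275 arrays and 5.9 to 6.09 on vehicle arrays, with none called. The part of these shifts in the results below was not tested.

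Much of the core cell cycle machinery was lower with corin. Of the 77 members, 20 were lower with corin than with vehicle at an adjusted p under 0.05 (limma, Benjamini-Hochberg over all named genes) and a fold of at least 2, the rule for a call used throughout. This was 26% of members, against 7.61% of all named genes called lower. Another 4 members were higher with corin, 5.19% against a background of 7.26%. MS-275 gave a smaller set, with 3 members lower than vehicle (3.9%, against 0.39% of all named genes) and 2 higher (2.6%, against 3.03%). Set directly against MS-275, corin left 14 members lower (18.2%, against 3.64%) and 1 higher (1.3%, against 2.41%). The comparisons with vehicle use the same 3 vehicle arrays and are not independent of each other.

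Smaller shifts reached more of the family. At an adjusted p under 0.05 with any fold (limma), 40 members were lower and 17 higher with corin than vehicle, against a background of 26.8% and 23.4% of all named genes. With MS-275 against vehicle 26 were lower and 12 higher, against 15.4% and 14.2%, and with corin against MS-275 34 were lower and 12 higher, against 20.8% and 17.4%. Groups that did not overlap were counted as well. For corin against vehicle 39 members lay wholly below and 18 wholly above vehicle, against 29.5% and 25.7% of all named genes. For MS-275 against vehicle these were 39 and 15, against 25% and 20.1%, and for corin against MS-275 37 and 15, against 25.2% and 21.4%. In each comparison the excess over the background was on the lower side, and the higher side stood within a few percent of it or below.

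The decrease lay in the genes of the cell cycle and not across every symbol with these prefixes. Of 27 members with a role in cell cycle progression, 18 were lower and 1 higher with corin than with vehicle, and their median log2 difference was -1.53. Of the other 50 members, 2 were lower and 3 higher, with a median of 0.04, close to the -0.04 over all named genes. The shares called over all named genes were 7.61% lower and 7.26% higher. With MS-275 the 27 members had a median of -0.60 and the other 50 a median of -0.05. These roles were assigned from textbook knowledge with the results known, so the split is a description. In cultures measured in bulk, fewer cycling cells and less of each transcript per cell cannot be told apart.

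**Figure D1:**
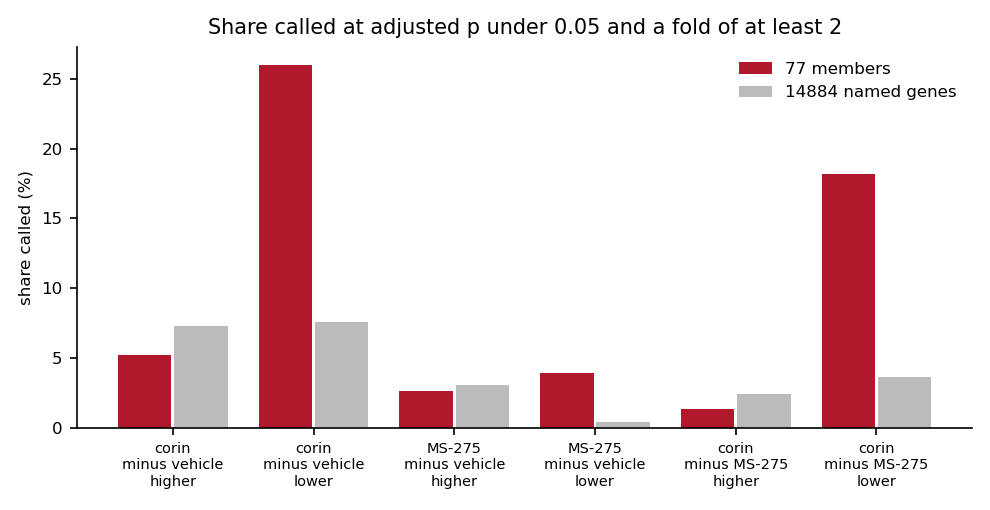
Share of members and of all named genes called higher and lower in each comparison, in percent. Lower calls took 26% of members and 7.61% of all genes for corin against vehicle, 3.9% and 0.39% for MS-275 against vehicle, and 18.2% and 3.64% for corin against MS-275.

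Several of the lowered genes are textbook targets of E2F and of the related DREAM repressor, which reads cell cycle genes through short promoter elements, so their promoters are shown. RefSeq promoter windows (GRCh38.p14, 250 bases before to 50 after the start) matched 69 of the 77 members and 17 of the 20 lowered by corin, and CDK2, CCNE2 and E2F8 were not among them. Windows were searched on both strands for E2F-type letters (TTTGGCGC, TTTGCCGC, TTTCGCGC or TTTCCCGC), for the CHR element of mitotic promoters (TTTGAA) and for CCAAT, and of the 88 matches in members no 2 of different motifs overlapped. E2F-type letters stood in 6 of the 17 lowered members (35.3%), in 5 of the other 52 matched members (9.62%) and in 3.33% of all 27305 promoters. The CHR letters stood in 5 of 17 (29.4%), 6 of 52 (11.5%) and 15.4% of all promoters, and CCAAT in 9 of 17 (52.9%), 20 of 52 (38.5%) and 35.7%. Among the lowered members CCNA2, CCNB1, CCNE1, CDC25B, CDC25C, CDK2AP1, CDK4 and CDK6 held neither E2F-type nor CHR letters in their windows. Only these exact letters within the window were searched, so variants of them or sites further away would be missed. A match in letters is a description of sequence and not a measured binding site.

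The 5 lowered genes with E2F-type letters before the start and a mitotic cyclin with the CHR letters follow, each read 5′ to 3′ up to the last base before the RefSeq start. Capitals mark the E2F-type, CHR and CCAAT letters on either strand.
CDC25A, chr3:48188418-48188537, minus strand: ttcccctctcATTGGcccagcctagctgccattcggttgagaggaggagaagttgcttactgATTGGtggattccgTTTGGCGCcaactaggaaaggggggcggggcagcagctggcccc
E2F1, chr20:33686386-33686505, minus strand: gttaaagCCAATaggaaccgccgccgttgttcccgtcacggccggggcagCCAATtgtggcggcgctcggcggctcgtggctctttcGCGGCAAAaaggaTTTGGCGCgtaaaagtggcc
E2F2, chr1:23531234-23531353, minus strand: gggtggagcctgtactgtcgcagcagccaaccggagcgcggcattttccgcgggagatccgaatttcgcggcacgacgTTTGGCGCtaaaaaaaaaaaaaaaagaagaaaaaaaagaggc
E2F3, chr6:20401749-20401878, plus strand: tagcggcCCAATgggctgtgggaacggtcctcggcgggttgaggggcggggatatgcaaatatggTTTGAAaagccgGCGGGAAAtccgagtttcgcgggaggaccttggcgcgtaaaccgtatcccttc
RBL1, chr20:37095998-37096117, minus strand: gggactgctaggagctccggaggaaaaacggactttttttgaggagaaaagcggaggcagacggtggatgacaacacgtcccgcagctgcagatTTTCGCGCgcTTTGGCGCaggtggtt
CCNB2, chr15:59105016-59105145, plus strand: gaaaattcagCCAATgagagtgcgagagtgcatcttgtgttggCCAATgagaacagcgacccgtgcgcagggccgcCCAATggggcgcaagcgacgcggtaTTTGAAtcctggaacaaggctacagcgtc

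Positions are counted from the RefSeq start, with the base before it as -1. The E2F-type letters began at -44 in CDC25A, -42 in E2F2, -53 in E2F3, -33 and -20 in E2F1, and -26 and -16 in RBL1. The last of the lowered members with such letters, CDK1, held them at 20, after the start. CHR letters began at -29 in CCNB2, -65 in E2F3, -85 in CCNF, -161 in CDK1 and -170 in CDKN3.

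Cyclin A2, the partner of CDK2 in S phase and of CDK1 in early mitosis, moved most of all members. CCNA2 read 5.03, 4.78 and 4.80 on the corin arrays, 8.38, 8.42 and 8.49 on the MS-275 arrays and 9.51, 9.57 and 9.53 on the vehicle arrays (log2). The groups lay far apart with no overlap, the corin arrays at the bottom. CCNA2 was 25.3-fold lower with corin than vehicle (log2 difference -4.66 with a standard error of 0.088, limma adjusted p = 1.9e-11) and 2.15-fold lower with MS-275 than vehicle (adjusted p = 4.3e-06). The direct difference between corin and MS-275 was 11.8-fold (log2 -3.56, adjusted p = 6e-10 from limma).

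The E-type cyclins, which bring CDK2 to the start of DNA replication, were called lower with corin as well. CCNE2 read 4.96, 4.9 and 4.64 on corin arrays, 6.43, 6.5 and 6.43 on MS-275 arrays and 7.54, 7.36 and 7.38 on vehicle arrays. CCNE1 read 5.96, 6.02 and 5.55 on corin arrays, 6.23, 6.48 and 6.38 on MS-275 arrays and 7.25, 7.1 and 7.1 on vehicle arrays. In both genes each corin array lay below each MS-275 array and each MS-275 array below each vehicle array. CCNE2 was 6.03-fold lower with corin than vehicle (log2 -2.59, adjusted p = 1.7e-09 from limma) and 3.07-fold lower than with MS-275 (adjusted p = 2.5e-07), while MS-275 against vehicle gave -0.97, just short of a 2-fold change (adjusted p = 2.5e-05). CCNE1 was 2.47-fold lower with corin than vehicle (log2 -1.30, adjusted p = 3.4e-06 from limma), and its differences of -0.79 for MS-275 against vehicle and -0.52 for corin against MS-275 passed the adjusted p (0.00062 and 0.0062) but not the fold.

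The kinases of the cell cycle, CDK1, CDK2, CDK4 and CDK6, were all called lower with corin and none with MS-275. CDK1, the kinase that drives mitosis, read 4.61, 4.64 and 4.42 on corin arrays, 7.55, 7.37 and 7.41 on MS-275 arrays and 7.87, 7.77 and 7.91 on vehicle arrays. The MS-275 arrays stood just below vehicle, and the corin arrays far below both. CDK1 was 9.81-fold lower with corin than vehicle (log2 -3.29, adjusted p = 1.7e-10 from limma) and 7.39-fold lower than with MS-275 (log2 -2.89, adjusted p = 1.9e-09), while MS-275 against vehicle gave -0.41 (adjusted p = 0.0055). CDK2, which serves cyclins E and A, read 7.89, 7.74 and 7.88 on corin arrays, 9.22, 9.22 and 9.35 on MS-275 arrays and 9.44, 9.46 and 9.49 on vehicle arrays. Its corin arrays stood apart from the rest, at 3.1-fold below vehicle and 2.69-fold below MS-275 (adjusted p = 1.4e-08 and 1.3e-07 from limma), and MS-275 against vehicle, at -0.20, did not pass (adjusted p = 0.087).

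CDK4 and CDK6 phosphorylate RB with the D-type cyclins. CDK4 read 7.38, 7.36 and 7.4 on corin arrays, 8.58, 8.64 and 8.63 on MS-275 arrays and 9.36, 9.46 and 9.42 on vehicle arrays. The spread within each group was small beside the steps between groups, and no arrays overlapped. CDK4 was 4.1-fold lower with corin than vehicle (adjusted p = 1.1e-09 from limma) and 2.36-fold lower than with MS-275 (adjusted p = 2.1e-07), and MS-275 against vehicle gave -0.80 (adjusted p = 1.4e-05), under the 2-fold limit. CDK6 read 5.42, 5.42 and 5.43 on corin arrays, 6.18, 6.05 and 6.32 on MS-275 arrays and 6.5, 6.42 and 6.36 on vehicle arrays. Its corin arrays lay below the others, and its difference from vehicle of -1.0 sat at the 2-fold limit (adjusted p = 1.7e-06 from limma), so that the call was lost when corin replicate 1, corin replicate 2 or vehicle replicate 1 was left out. Against MS-275 CDK6 was 0.76 log2 units lower with corin (adjusted p = 3.7e-05 from limma), short of a call.

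The D-type cyclins, which link growth signals to these kinases, did not follow the kinases. CCND1, which is amplified in some melanomas, read 7.76, 7.73 and 7.73 on corin arrays, 8.4, 8.45 and 8.43 on MS-275 arrays and 7.84, 7.71 and 7.75 on vehicle arrays. Corin and vehicle arrays overlapped and the MS-275 arrays stood above both. The log2 difference of CCND1 was -0.03 between corin and vehicle (95% interval -0.19 to 0.14, adjusted p = 0.78 from limma), 0.66 between MS-275 and vehicle (adjusted p = 5.8e-05) and -0.69 between corin and MS-275 (adjusted p = 2.4e-05), and none reached 2-fold.

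CCND2 was called higher than vehicle with both inhibitors. Its brighter probe read 4.79, 5.08 and 4.98 on corin arrays, 4.72, 5.02 and 5.01 on MS-275 arrays and 4.04, 3.77 and 3.61 on vehicle arrays. The inhibitor arrays overlapped each other and lay above all vehicle arrays, at 2.21-fold with corin (adjusted p = 1.4e-05 from limma) and 2.16-fold with MS-275 (adjusted p = 6.7e-05), and the difference between the inhibitors was 0.03 (95% interval -0.25 to 0.32). The other CCND2 probe differed from vehicle by 0.03 with corin and 0.02 with MS-275 (unadjusted p = 0.84 and 0.86 from limma), so the probes disagree, and the signal of the brighter one lay below the median named gene in every group. CCND3 read 5.96, 6.19 and 6.2 on corin arrays, 6.23, 6.06 and 5.95 on MS-275 arrays and 6.54, 6.46 and 6.46 on vehicle arrays, without a call in any comparison. Its inhibitor arrays overlapped and lay below vehicle by 0.37 and 0.41 log2 units (adjusted p = 0.0085 and 0.0091 from limma).

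The mitotic cyclins fell with corin, apart from CCNB3. CCNB1, the main activator of CDK1, read 5.5, 5.51 and 5.11 on corin arrays, 7.68, 7.72 and 7.86 on MS-275 arrays and 8.56, 8.52 and 8.45 on vehicle arrays. CCNB2, its close relative whose promoter is printed above, read 4.58, 4.85 and 4.7 on corin arrays, 7.12, 7.15 and 7.08 on MS-275 arrays and 7.61, 7.58 and 7.87 on vehicle arrays. In both genes the corin arrays were lowest by a wide gap and the groups did not overlap. CCNB1 was 8.79-fold and CCNB2 7.89-fold lower with corin than vehicle (adjusted p = 9.9e-10 and 7.1e-10 from limma), and 5.21-fold and 5.3-fold lower than with MS-275 (adjusted p = 3.2e-08 and 1.3e-08). With MS-275 against vehicle the log2 differences were -0.75 and -0.57 (adjusted p = 0.00039 and 0.0013 from limma), short of a call. CCNF, an F-box protein that marks mitotic and replication proteins for destruction, read 6.44, 6.4 and 6.29 on corin arrays, 6.91, 7.04 and 7.07 on MS-275 arrays and 7.92, 7.85 and 7.95 on vehicle arrays. Its groups lay in that rising order without overlap, with a 2.89-fold decrease from vehicle with corin (adjusted p = 3.1e-08 from limma) and log2 differences of -0.90 for MS-275 against vehicle and -0.63 for corin against MS-275. CCNB3, a cyclin of meiosis, differed from vehicle by 0.67 with corin and 0.48 with MS-275 without a call.

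**Figure D2:**
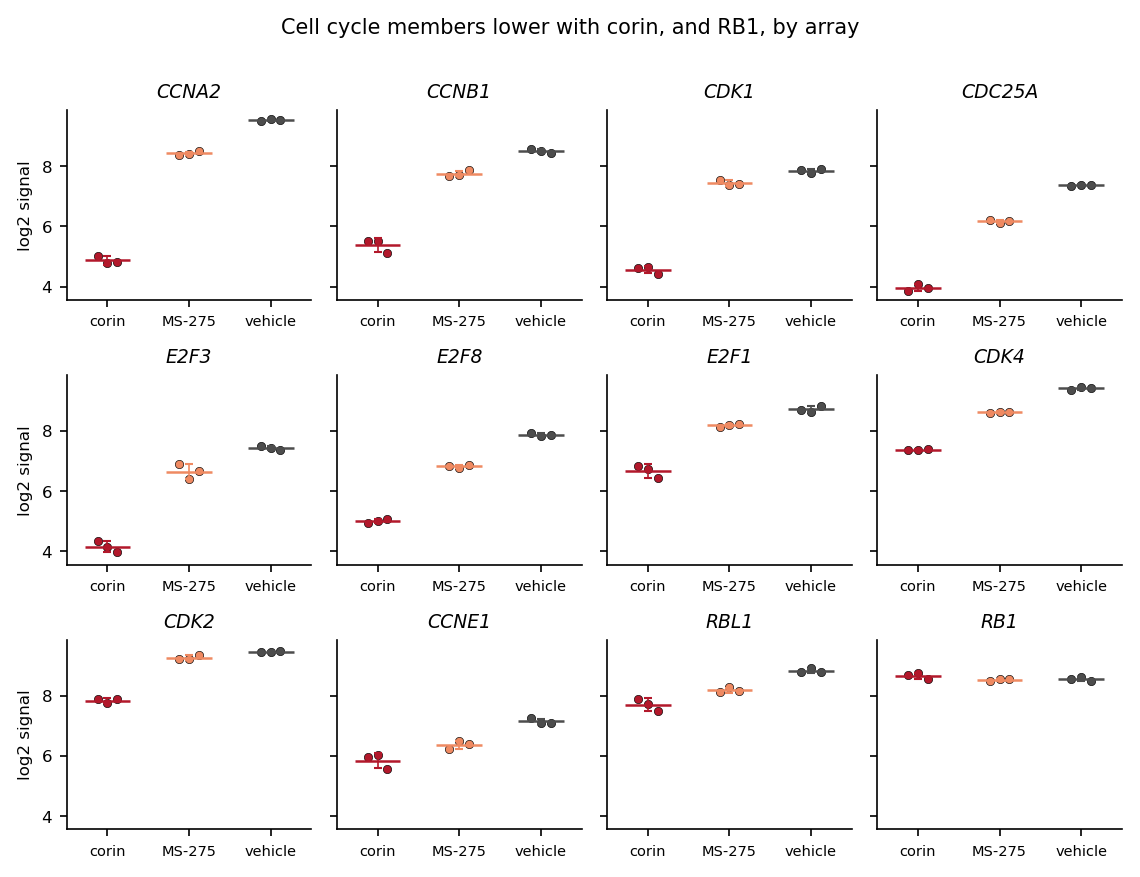
Log2 signal of core cell cycle members on each of the 3 corin, 3 MS-275 and 3 vehicle arrays (points), with the group mean and SD (line and bars). CCNA2 averages 4.87 on corin arrays, 8.43 on MS-275 arrays and 9.53 on vehicle arrays, while the RB1 points of vehicle overlap those of both inhibitors.

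The CDC25 phosphatases, which switch CDKs on, were all called lower with corin. CDC25A, which acts at the G1/S step and in mitosis, read 3.85, 4.1 and 3.95 on corin arrays, 6.22, 6.12 and 6.17 on MS-275 arrays and 7.33, 7.37 and 7.39 on vehicle arrays. CDC25C, which activates CDK1, read 4.13, 4.21 and 4.03 on corin arrays, 6.1, 5.84 and 6.05 on MS-275 arrays and 6.67, 6.53 and 6.61 on vehicle arrays. CDC25B, a starter of mitosis, read 6.49, 6.75 and 6.8 on corin arrays, 7.63, 7.57 and 7.6 on MS-275 arrays and 8.2, 8.08 and 8.31 on vehicle arrays. All of them ranked corin lowest and vehicle highest without overlap. CDC25A was 10.5-fold lower with corin than vehicle (adjusted p = 8.4e-11 from limma), 2.29-fold lower with MS-275 than vehicle (adjusted p = 1.9e-06), the largest decrease of any member with MS-275, and 4.6-fold lower with corin than MS-275. CDC25C was 5.59-fold lower with corin than vehicle and 3.67-fold lower than with MS-275 (adjusted p = 1.5e-09 and 5.1e-08 from limma), with -0.61 for MS-275 against vehicle. CDC25B was 2.87-fold lower with corin than vehicle (adjusted p = 1.4e-07 from limma), and its 1.89-fold decrease against MS-275 fell short of a call.

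Among the activating E2F factors, E2F3 had the largest decrease. E2F3 read 4.33, 4.15 and 3.97 on corin arrays, 6.9, 6.39 and 6.66 on MS-275 arrays and 7.51, 7.43 and 7.38 on vehicle arrays. E2F1 read 6.85, 6.73 and 6.42 on corin arrays, 8.12, 8.18 and 8.24 on MS-275 arrays and 8.71, 8.63 and 8.82 on vehicle arrays. E2F2 read 5.1, 4.93 and 4.76 on corin arrays, 5.74, 5.76 and 5.58 on MS-275 arrays and 6.62, 6.75 and 6.55 on vehicle arrays. In each gene corin was lowest, vehicle highest and no arrays overlapped, and MS-275 stood nearer to vehicle than to corin in E2F1 and E2F3 but not in E2F2. E2F3 was 9.8-fold, E2F1 4.16-fold and E2F2 3.27-fold lower with corin than vehicle (adjusted p = 2.4e-09, 2.8e-08 and 7.8e-08 from limma). Against MS-275 they were 5.67-fold, 2.86-fold and 1.7-fold lower with corin (adjusted p = 7.1e-08, 1e-06 and 0.00013 from limma), the last short of a call. With MS-275 against vehicle their log2 differences were -0.79, -0.54 and -0.95, none a call. The promoters of all of them, printed above, hold E2F-type letters.

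E2F7 and E2F8 are repressors that shut E2F targets down late in S phase, and of them only E2F8 was called. E2F8 read 4.93, 5.02 and 5.08 on corin arrays, 6.84, 6.78 and 6.88 on MS-275 arrays and 7.93, 7.82 and 7.86 on vehicle arrays. Its groups did not overlap, and it was lower in every comparison, by 7.28-fold for corin against vehicle, 2.05-fold for MS-275 against vehicle and 3.55-fold for corin against MS-275 (adjusted p = 1.7e-10, 2.9e-06 and 1.7e-08 from limma). Its call with MS-275 was near the limit and was lost after quantile normalization, at -0.97. E2F7 differed from vehicle by -0.90 with corin and -0.65 with MS-275 (adjusted p = 5e-06 and 0.00023 from limma) and was not called. TFDP1, the DNA-binding partner that E2F1 to E2F3 need, read 7.04, 6.79 and 7.15 on corin arrays, 7.52, 7.54 and 7.22 on MS-275 arrays and 7.62, 7.59 and 7.9 on vehicle arrays. Its corin arrays lay below the rest, by 0.71 log2 units against vehicle (adjusted p = 0.0006 from limma), without a call, and the other partner, TFDP2, differed from vehicle by -0.29 with corin and -0.31 with MS-275.

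RB1, the pocket protein that holds the activating E2F factors, was not called in any comparison. It read 8.69, 8.74 and 8.55 on corin arrays, 8.48, 8.55 and 8.55 on MS-275 arrays and 8.56, 8.62 and 8.49 on vehicle arrays. The vehicle arrays overlapped both inhibitor groups, and the lowest corin array lay above the highest MS-275 array by less than the rounding. The difference for corin was 0.11 from vehicle (95% interval -0.08 to 0.29, adjusted p = 0.32 from limma) and 0.13 from MS-275 (95% interval -0.05 to 0.32, adjusted p = 0.24). RBL1 (p107), which with E2F4 represses S phase genes and is itself an E2F target, read 7.9, 7.71 and 7.48 on corin arrays, 8.11, 8.28 and 8.15 on MS-275 arrays and 8.79, 8.91 and 8.77 on vehicle arrays. Corin lay lowest and vehicle highest without overlap, with a 2.18-fold decrease from vehicle with corin (adjusted p = 3.9e-06 from limma) and -0.48 against MS-275 (adjusted p = 0.0043). RBL2 (p130), the pocket protein of resting cells, read 6.32, 6.05 and 6.41 on corin arrays, 6.56, 6.8 and 6.56 on MS-275 arrays and 7.18, 7.1 and 6.97 on vehicle arrays. It was also ordered without overlap, at -0.82 with corin and -0.44 with MS-275 against vehicle (adjusted p = 7.1e-05 and 0.012 from limma), and was not called.

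Of the 10 measured CDK inhibitors and CDK-associated proteins, 2 were called lower and 1 higher with corin than vehicle. The shares over all named genes were 7.61% and 7.26%. Past the adjusted p at any fold (limma), 7 of the 10 were lower and 1 higher, against 26.8% and 23.4% of all named genes. Their median log2 difference was -0.51. CDKN2A, which codes for both the CDK4 and CDK6 inhibitor p16 and the p53 activator p14ARF, read 4.29, 4.19 and 4.62 on corin arrays, 4.98, 4.86 and 5.07 on MS-275 arrays and 5.12, 5.04 and 4.91 on vehicle arrays. The corin arrays lay lowest, MS-275 overlapped vehicle, and all lay under the median named gene. Its difference for corin was -0.65 from vehicle and -0.60 from MS-275 (adjusted p = 0.00054 and 0.0015 from limma), short of a call. The probe named for the antisense transcript CDKN2A-AS1 differed the other way, by 0.84 between corin and vehicle and 0.88 between corin and MS-275 (adjusted p = 4.5e-05 and 6e-05 from limma), also under 2-fold.

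CDKN3, a phosphatase that inactivates CDK2 and is itself most abundant in dividing cells, read 5.41, 4.84 and 5.14 on corin arrays, 6.49, 6.61 and 6.64 on MS-275 arrays and 6.68, 6.77 and 7.05 on vehicle arrays. Its corin arrays stood apart below the others, at 3.25-fold under vehicle and 2.73-fold under MS-275 (adjusted p = 1e-06 and 9.8e-06 from limma), and MS-275 against vehicle gave -0.25 (adjusted p = 0.22). CDK2AP1, a CDK2-binding protein and subunit of the NuRD deacetylase complex, read 6.1, 6.09 and 6.18 on corin arrays, 7.33, 7.73 and 7.48 on MS-275 arrays and 8.2, 8.07 and 8.18 on vehicle arrays. It fell without overlap by 4.08-fold with corin against vehicle and 2.62-fold against MS-275 (adjusted p = 1.9e-08 and 1.3e-06 from limma), while its relative CDK2AP2 differed from vehicle by 0.16 with corin. CDKN2AIP, a binding partner of p14ARF that acts on p53, read 7.21, 6.84 and 7.07 on corin arrays, 6.12, 6.22 and 6.27 on MS-275 arrays and 5.81, 5.92 and 5.88 on vehicle arrays. Here corin was highest without overlap, 2.25-fold above vehicle (adjusted p = 1.5e-06 from limma) and 1.79-fold above MS-275, and its like-named relative CDKN2AIPNL went the other way, at -0.92 with corin against vehicle (adjusted p = 3.3e-06).

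Of the 14 cyclins and CDKs of transcription, which ranged from -0.59 to 1.43 for corin against vehicle, only CCNL1 was called. CCNL1 (cyclin L1), a partner of CDK11 in RNA splicing, read 8.2, 8.07 and 8.11 on corin arrays, 7.02, 6.95 and 7.16 on MS-275 arrays and 6.67, 6.73 and 6.69 on vehicle arrays. Its corin arrays were the highest without overlap, 2.7-fold above vehicle (adjusted p = 5.2e-08 from limma) and 2.12-fold above MS-275 (adjusted p = 1.5e-06), the one member called higher in the direct comparison. The related CCNL2 differed from vehicle by 0.12 with corin. CDK7, the kinase of TFIIH that also activates other CDKs, read 7.59, 7.25 and 7.27 on corin arrays, 6.94, 6.92 and 6.93 on MS-275 arrays and 6.91, 6.92 and 6.84 on vehicle arrays. It lay above the other groups with corin by 0.48 against vehicle and 0.45 against MS-275 (adjusted p = 0.0013 and 0.0034 from limma), and its partner cyclin CCNH by 0.55 and 0.28, below 2-fold in each case. The elongation pair CDK9 and CCNT1 differed from vehicle by 0.48 and 0.52 with corin (adjusted p = 0.00082 and 0.00069 from limma), while the alternative CDK9 cyclin CCNT2 differed by -0.59 and CDK12 by -0.41. With MS-275 against vehicle CDK9, CCNT2 and CDK12 differed alike, by 0.34, -0.63 and -0.49 (adjusted p = 0.014, 0.0013 and 0.0017 from limma), and CCNT1 by -0.02. Of these genes only CCNT1 passed the adjusted p between the inhibitors, at 0.54 (adjusted p = 0.00087 from limma). CDK11A, whose near-identical copy CDK11B may share its probes, did not pass the adjusted p in any comparison.

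**Figure D3:**
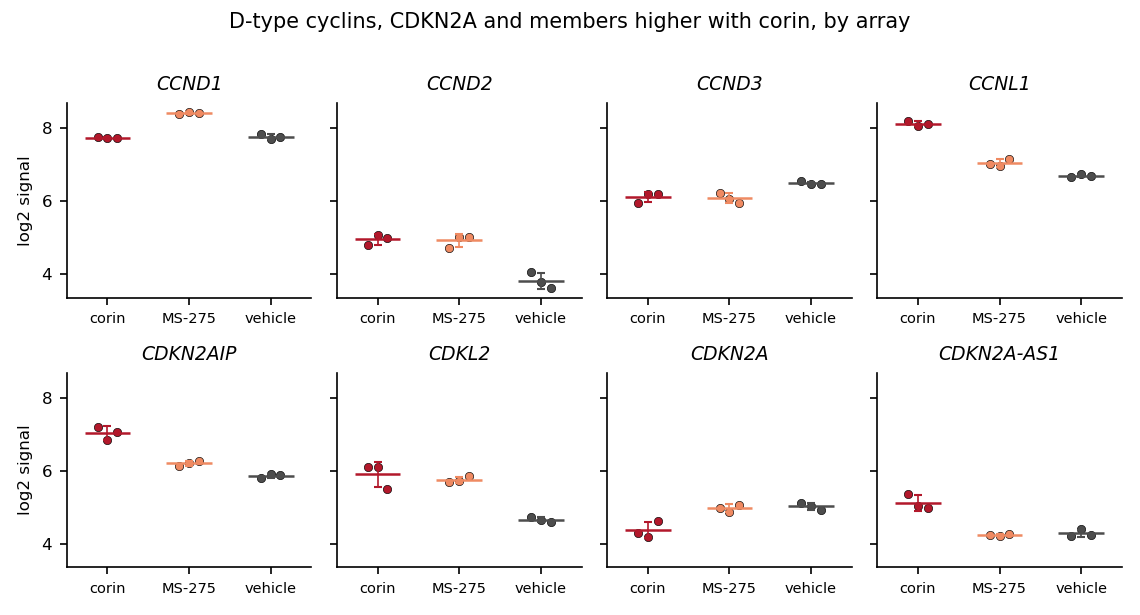
Log2 signal of the D-type cyclins, CDKN2A and the members higher with corin on each of the 3 corin, 3 MS-275 and 3 vehicle arrays (points), with the group mean and SD (line and bars). CCND1 is highest with MS-275, CCND2 and CDKL2 are higher than vehicle with both inhibitors, and CCNL1 and CDKN2AIP are highest with corin.

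None of the 9 other cyclins was called. CCNYL1, a relative of the membrane cyclin Y, came closest at 0.93 between corin and vehicle (adjusted p = 0.00014 from limma), with CCNG1, a p53 target, at -0.79 (adjusted p = 1.4e-05) and CCNO, a cyclin of ciliated cells, at -0.83 (adjusted p = 0.00081). CCNJL was a member with differences of opposite sign past the adjusted p, at -0.30 with corin and 0.32 with MS-275 against vehicle (adjusted p = 0.043 and 0.047 from limma). Among the 12 other CDKs and CDK-like kinases, CDKL2 alone was called. CDKL2, a kinase related to CDKs and best known in the nervous system, read 6.1, 6.1 and 5.5 on corin arrays, 5.69, 5.72 and 5.85 on MS-275 arrays and 4.74, 4.65 and 4.59 on vehicle arrays. The inhibitor arrays overlapped and all lay above vehicle, by 2.36-fold with corin and 2.13-fold with MS-275 (adjusted p = 1.9e-05 and 0.00017 from limma), and the inhibitors differed by 0.15 (95% interval -0.17 to 0.47). The 12 ranged from -0.64 to 1.24 for corin against vehicle. Of the 5 noncoding RNAs and pseudogenes none was called.

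**Figure D4:**
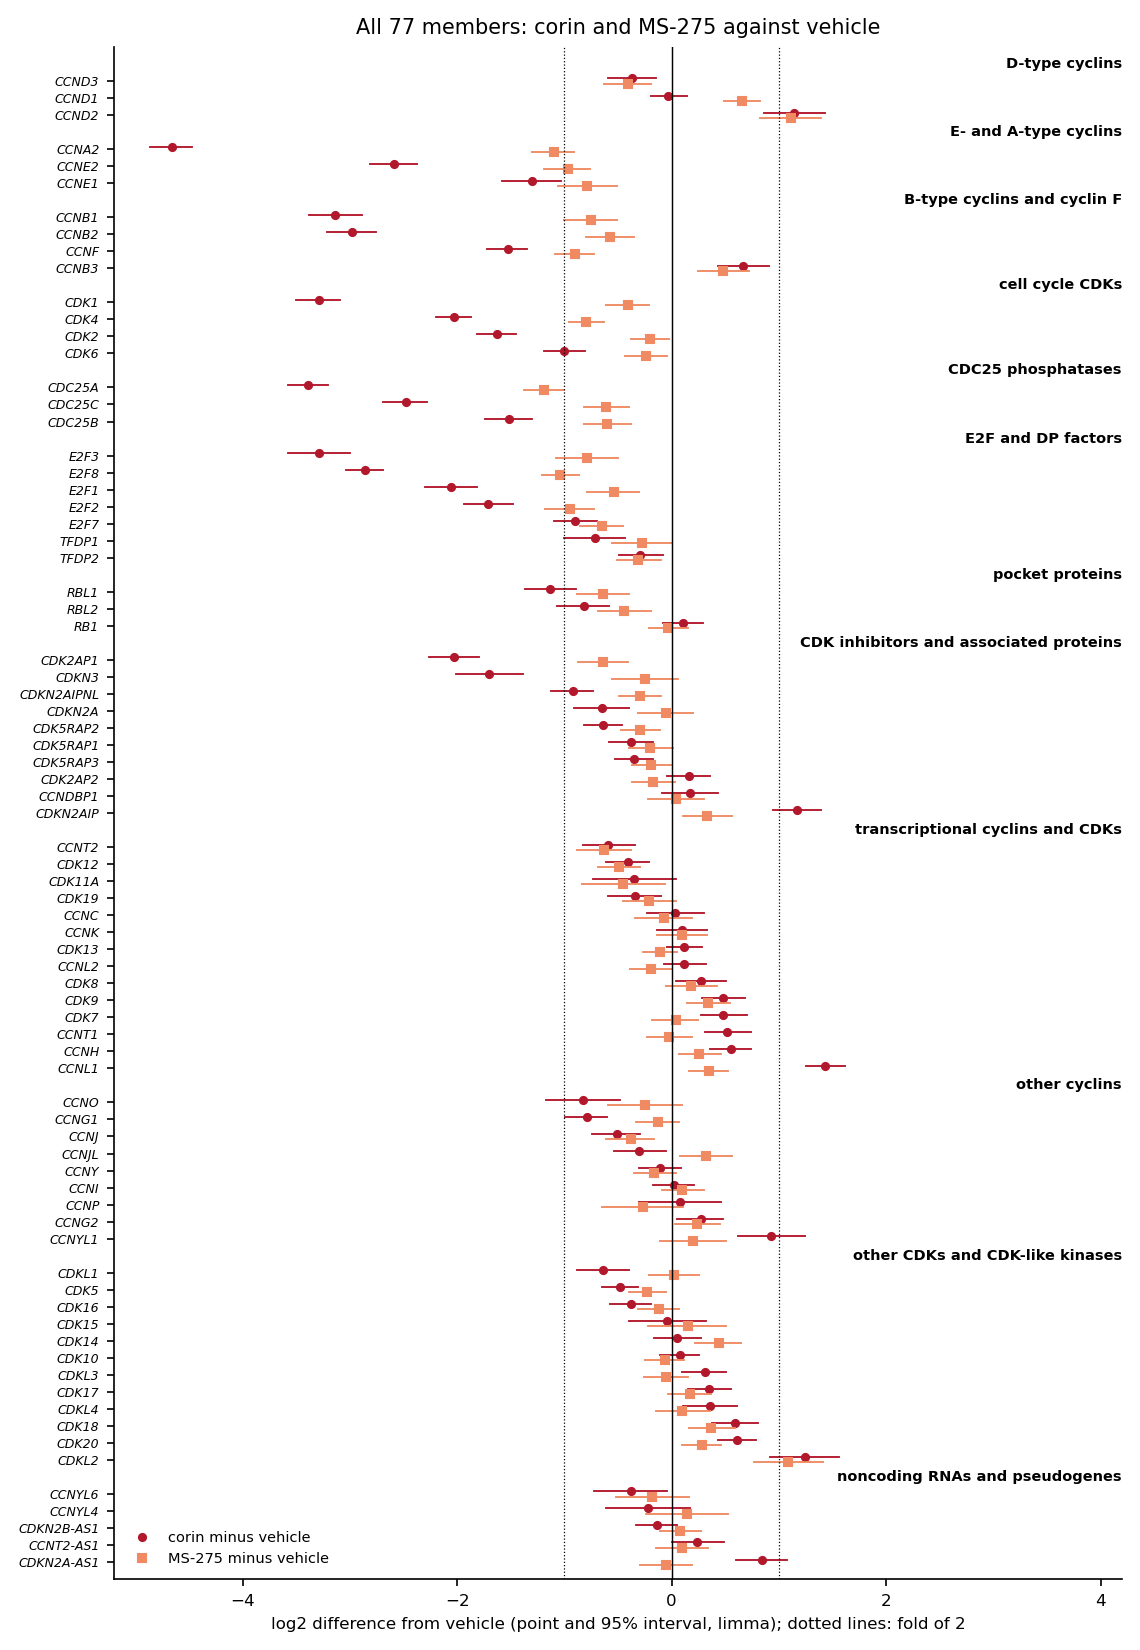
Log2 difference from vehicle of each of the 77 members with corin (circles) and MS-275 (squares), with 95% intervals from limma, grouped by role, and dotted lines at a 2-fold change. Values run between -4.66 and 1.43 with corin and between -1.19 and 1.11 with MS-275, and 18 of the 20 members called lower with corin stand in the cell cycle roles.

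At the same dose and time the inhibitors were set against each other over all 77 members, as 1 pair of compounds. CCNA2, CDC25A and E2F8 were called lower in all comparisons. Another 11 members called lower with corin than vehicle were also lower than with MS-275, namely CCNB1, CCNB2, CCNE2, CDC25C, CDK1, CDK2, CDK2AP1, CDK4, CDKN3, E2F1 and E2F3. The remaining 6 of the 20, CCNE1, CCNF, CDC25B, CDK6, E2F2 and RBL1, were 0.48 to 0.92 log2 units lower with corin than with MS-275, with adjusted p of at most 0.0062 from limma, under the 2-fold limit. Over these 20 members the log2 differences from vehicle ran between -4.66 and -1.0 with corin and between -1.19 and -0.20 with MS-275, with medians of -2.04 and -0.70. The corin signal of 10 of the 20 lay below the median named gene, and the size of a fold is uncertain at such low signals. For 31 members the direct difference did not pass the adjusted p, with estimates between -0.36 and 0.35 and 95% intervals that reached from -0.75 to 0.73, so smaller differences between the compounds remain possible there.

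**Figure D5:**
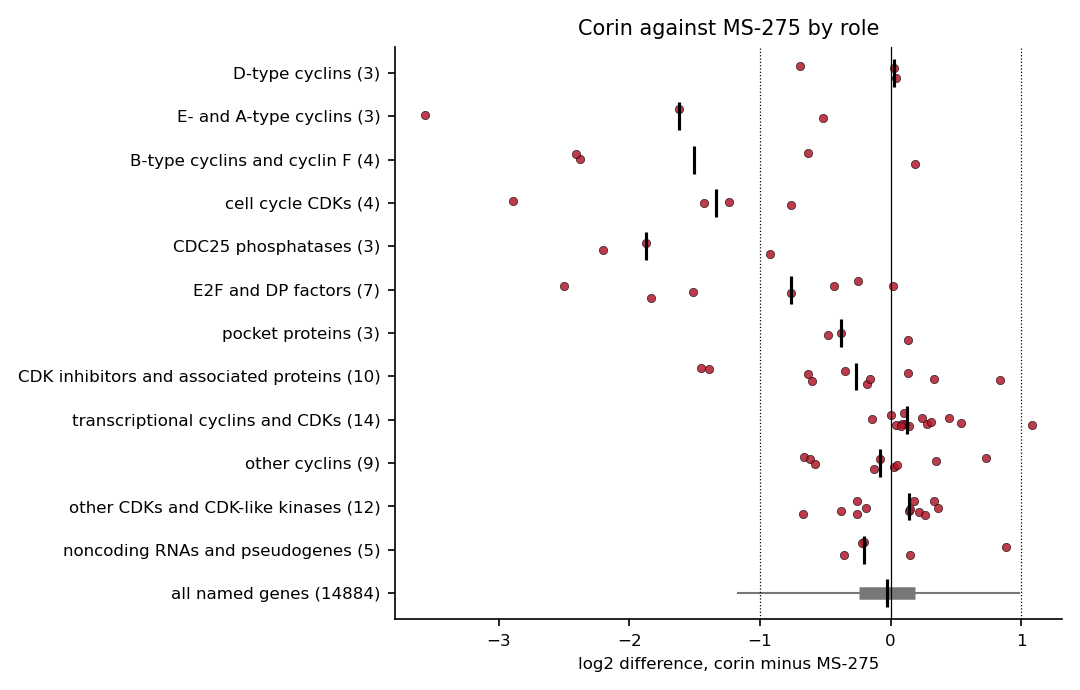
Log2 difference, corin minus MS-275, for each member (points) by role, with the role's median (short bar) and dotted lines at a 2-fold change. The lowest row gives all named genes, with a thick bar for the interquartile range (-0.24 to 0.19) and a thin line for the central 95% of genes (-1.17 to 0.98). The E and A cyclins, cell cycle CDKs and CDC25 genes lie to the lower side, down to -3.56 for CCNA2, and CCNL1 lies highest at 1.08.

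The genes around the family were read from 4 lists drawn up with earlier results known. Over all named genes 7.61% were called lower and 7.26% higher with corin than vehicle, and 0.39% and 3.03% with MS-275 than vehicle. For corin against MS-275 these shares were 3.64% and 2.41%. A single higher call in a list is near these shares. Of 22 measured E2F target genes of replication and mitosis, 21 were called lower with corin than vehicle, 3 with MS-275 than vehicle (GINS1, GINS2 and MCM3, parts of the replicative helicase) and 19 with corin than MS-275, and none higher. Their median log2 differences were -2.77, -0.90 and -1.81, against -0.04, -0.03 and -0.03 over all named genes. The largest decreases with corin against vehicle were those of TYMS, which makes thymidylate, at 22.2-fold, GINS2 of the replicative helicase at 14-fold, TOP2A, a topoisomerase, at 13.5-fold, and BIRC5, survivin, at a log2 difference of -3.35. PCNA, the sliding clamp of the DNA polymerases, was the exception at -0.54 (adjusted p = 0.00016 from limma) and is named after its values were seen. Of 20 measured kinases, activators and cofactors that act on CDKs, 10 were lower and 2 higher with corin than vehicle (median -0.77), against 0 lower and 1 higher with MS-275 (median -0.45). The higher ones, RGCC with both inhibitors and SERTAD1 with corin, code for proteins that bind CDK1 and CDK4 and were picked out after their values were seen. RGCC averaged 2.73 on vehicle, 4.24 on MS-275 and 5.15 on corin arrays, below the median named gene in every group, so its fold is uncertain. In the same list the mitotic kinase PLK1 was 17.7-fold lower with corin, and the anaphase activator CDC20 fell by 3.07 log2 units. WEE1, which restrains CDK1, was 7.19-fold lower, and the kinase AURKA fell by 2.66 log2 units.

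CKS2, a small subunit bound by CDK1 and CDK2, ran against this pattern and was likewise singled out after its values were seen. It read 10.63, 10.69 and 10.57 on corin arrays, 9.32, 8.98 and 9.19 on MS-275 arrays and 9.82, 9.72 and 9.69 on vehicle arrays. Its corin arrays were the highest and its MS-275 arrays the lowest, and corin exceeded MS-275 by 2.76-fold (log2 1.46, limma adjusted p = 4.9e-07). Against vehicle the log2 differences of CKS2 were 0.88 with corin and -0.58 with MS-275, neither a call.

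Of 21 measured partners of the pocket proteins and of the DREAM and MuvB complexes, 5 were lower and 1, the deacetylase HDAC3, higher with corin than vehicle (median -0.38), and MYBL2 alone was lower with MS-275 (median -0.28). MYBL2 (B-MYB), which turns MuvB into an activator of mitotic genes, was 16.7-fold lower with corin than vehicle and 8.01-fold lower than with MS-275, and FOXM1, a factor of mitotic genes, was 8.69-fold lower than vehicle with corin. The histone methyltransferase SUV39H1 fell by 2.49 log2 units and the MuvB subunit LIN9 by 1.94. Of 18 measured genes upstream of the D-type cyclins, 6 were higher and 3 lower with corin than vehicle, and EGR1, FOS and JUN were higher and 0 lower with MS-275, with medians of 0.09 and -0.02. The growth-factor-induced genes EGR1, JUN and FOS were 6.54-fold, 6.34-fold and 3.89-fold higher with corin and ETV4 was 4.44-fold lower, while CCND1 itself did not differ past the test. ETV5, DUSP6, SPRY4 and SPRY2 of the same list differed from vehicle by 0.26, 0.24, -0.14 and -0.92 with corin. None of them was called, and they are given after their values were seen. MXD1 was 2.98-fold higher with corin than vehicle and 3.95-fold higher than with MS-275. MYC and FOSL1, given after their values were seen, were called lower besides ETV4, and MYC was 2.62-fold lower with corin than vehicle.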

How the data were processed

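Total RNA of 9 WM983B samples was labelled with biotin and read on Affymetrix Human Gene 2.0 ST arrays. The authors used RMA and Partek to extract and normalize the intensities, and the deposited log2 values cover 53617 probes. The submitters' processing notes name hg19. No further normalization or filter was applied, and array medians lay between 4.05 and 4.12, so that differences are relative to other transcripts. The probe table gave 1 symbol to 16098 probes and none here to 37519, which left 14884 named genes. Where a gene had more than 1 probe (779 genes), its brightest one by mean was used. Differences were fitted on all 9 arrays by lmFit and eBayes (limma 3.58.1, R 4.3.3), with Benjamini-Hochberg adjustment over all named genes. The 3 arrays per group limit the precision: the median SD of a member was 0.135 for corin arrays, 0.0909 for MS-275 arrays and 0.0772 for vehicle arrays.

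The members, roles and lists were chosen with earlier results of these data known. Values on every array are given for members called in any comparison and for a core of textbook genes. Up to 4 genes of each list are named by size of change with corin against vehicle. MXD1 is added for its change between corin and MS-275. The fit was tested on simulated data. The labels do not say whether arrays with the same replicate number belong together. Correlations of deviations were -0.059 to 0.017 between such arrays and -0.04 to 0.07 between arrays with different numbers. These values cannot show whether the arrays shared an experiment. The alternatives tried were the replicate block, only the groups compared, trend and robust eBayes, a signal filter, the mean of all probes, centred arrays, quantile normalization, other fold limits, an unmoderated one-way model as in the study's methods, taking the unadjusted p, and each array left out. Promoters were read from RefSeq on GRCh38.p14. Python 3.11.15 and matplotlib 3.10.9 were used for the figures.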

Additional observations from a re-analysis of the deposited data

How the results depend on the processing

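The counts of called members did not change with the replicate block (4 higher and 20 lower for corin against vehicle, 2 and 3 for MS-275 against vehicle, 1 and 14 for corin against MS-275). Whether arrays with the same replicate number belong together is not stated. The counts were also the same with only the groups compared, trend and robust settings, centred arrays and the one-way model of the methods. Without a minimum fold, 17 were higher and 40 lower for corin against vehicle, 12 and 26 for MS-275 against vehicle, and 12 and 34 for corin against MS-275. With a fold of at least 2 SD of each comparison (3.02, 1.81 and 2.08), 0 members were higher and 15 lower with corin than vehicle, and 6 were lower with MS-275 than vehicle, CCNE2, CCNF and E2F2 being added. CCND2 dropped out of the members higher with MS-275 than vehicle among genes at or above the median signal, which left 1, and again when all probes of a gene were averaged, which left 1 with CCND2 at 0.57. Its call with corin was lost in both settings as well. The signal filter removed CCND2 from every comparison, and its averaged probes differed from vehicle by 1.14 and 0.03 with corin. Quantile normalization left 2 members lower with MS-275, with E2F8 at -0.97. Leaving out each array in turn gave 4 to 5 higher and 19 to 20 lower for corin against vehicle, 2 to 2 higher and 3 to 4 lower for MS-275 against vehicle, and 1 to 1 higher and 14 to 14 lower for corin against MS-275. CDK6 was the call lost, and without vehicle replicate 2 CCNYL1 was gained with corin and CCNE2 with MS-275. Of 1365 values of 24 members over these settings, 1323 kept direction and side of the threshold, 15 lost the call, 27 gained one and 0 turned. Several settings leave the log2 difference unchanged, so the direction could not turn in them. These include the other fold limits, the replicate block, trend and robust eBayes and the one-way model. Signals near the background of an array limit how well the size of a fold is known.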
